A study of Mus musculus with 6 samples.

Results

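The genes examined were 10 chloride channel and CLIC genes of the mouse choroid plexus (ChP), set by name and family with earlier results of these data known. They were Clic6, Clic1, Clic4 and Clic5 of the CLIC family, Clcn2, Clcn3 and Clcn7 of the CLC family, Cftr, Ano6 and Lrrc8a. All 10 were among the 24354 gene names of the expression table, and 7 of the 10 passed the filter on low values and were tested. Ribosome-bound mRNA was sequenced from 3 samples of adult ChP, aged 60 days by the labels, and 3 samples of embryonic ChP at E16.5. All animals of both ages carried FoxJ1:cre together with the bacTRAP transgene EGFP:L10a, so that only cells that had expressed Cre under the Foxj1 promoter tagged their ribosomes with EGFP. Translating ribosome affinity purification (TRAP) pulls down the tagged ribosomes with the mRNA on them. By the study's methods each adult sample pooled the lateral ventricle ChP of 3 mice and each E16.5 sample that of 3 litters, but 3 mice per age are stated in the series text, so the number of animals behind a replicate is not settled and p-values measure the spread between these samples. In bulk samples, fewer cells of a type and less RNA per cell cannot be told apart.

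Chloride is the main anion of cerebrospinal fluid, and its movement across the ChP epithelium is coupled to that of cations and water. The epithelium takes chloride up from the blood side by anion exchange, and cotransporters and channels in the membrane facing the fluid let it pass to or from the ventricle. The CLC family holds both plasma membrane channels and chloride-proton exchangers of endosomes and lysosomes, LRRC8 proteins form the channel that opens when cells swell, and CFTR is a channel opened by cAMP signalling. The CLIC proteins resemble glutathione S-transferases and exist in soluble and membrane-bound forms, and their activity as channels in cells is debated.

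One gene stood far above the rest at both ages. Clic6 was between 559 and 810 FPKM, a read count scaled to transcript length and to the mapped reads of the library, in the 6 samples and made up 83.8% to 93.4% of the summed FPKM of the 10 genes. The difference between the ages lay within the spread of the samples. Ano6 was the gene with the largest difference among the 7 tested: all adult samples lay above all E16.5 samples, at a mean of 30.3 against 10.4 FPKM, but the difference missed the threshold after adjustment. Clcn2 was listed at 0 in all adult samples and above 0 in all E16.5 samples, Clic5 was above 0 in 1 sample, and Cftr was listed at 0 in all 6.

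**Figure D1:**
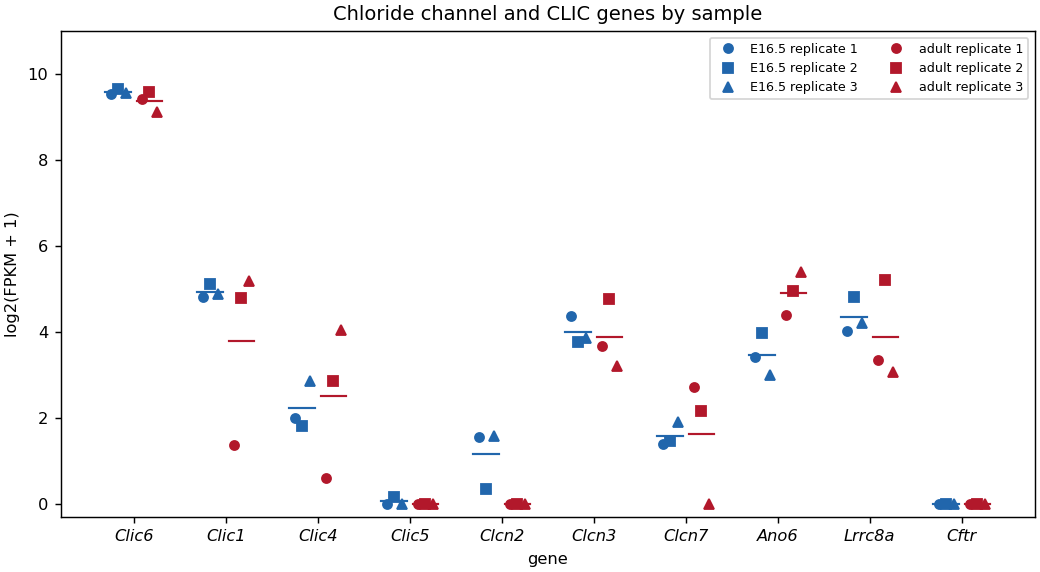
Level of each of the 10 genes in every sample, as log2(FPKM + 1), with E16.5 in blue and adult in red, replicates 1, 2 and 3 as circles, squares and triangles, and a line at the mean of the log2 values of each age. Clic6 lies above all other genes in every sample, the 3 adult points of Ano6 lie above its 3 E16.5 points, and Clic1 and Clic4 have a low point in adult replicate 1.

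The libraries differed in depth with age, which touches the low values of every gene described here. Mapped reads are not given with the table, but low values fell close to multiples of what a single read is worth, and by these steps the adult libraries were 1.29, 2.88 and 1 times as deep as the shallowest and the E16.5 libraries 4.08 to 5.09 times. Cufflinks can also list a gene at 0 when an estimate fails, and of 83 ribosomal protein genes, which cells use throughout, 27 to 52 were listed at 0 in an adult sample and 12 to 16 in an E16.5 sample. A gene at 0 is therefore given here only as listed at 0. The epithelial markers were above 0 in every sample except Ttr, the transthyretin gene of ChP epithelium, which was listed at 0 in all E16.5 samples, and Cdh1, listed at 0 in adult replicates 2 and 3. The summed level of the 12 epithelial markers was 39027 to 54361 FPKM in adult samples and 2806 to 3123 FPKM at E16.5. Most of the adult sum was Ttr (20922 to 31302 FPKM) and Enpp2 (14886 to 18732 FPKM, against 242 to 303 FPKM at E16.5). Of the 11 tested, 7 had all adult samples above all E16.5 samples and 4 had them all below, beside 7.39% and 31.0% of all genes tested. In limma 5 were called for adult and 2 for E16.5 (adjusted p under 0.05), beside 2.12% and 8.83% of all genes tested. Ttr is among the 7 and among the 5, so the adult sum and both adult counts rest in part on a gene listed at 0 in all E16.5 samples. The 8 motile cilia markers summed to 209 to 405 FPKM in adult samples and 1062 to 1202 FPKM at E16.5. All adult samples lay below all E16.5 samples in 7 of 7 tested, beside 31.0% of all genes tested. Of these, 5 were called higher at E16.5, beside 8.83% of all genes tested. Markers of other cells were also higher in sum at E16.5 than in adult samples for mesenchyme (83.2 to 108 against 21.6 to 39.1 FPKM, 1 of 7 tested called), red blood cells (54.1 to 324 against 0 to 6.49 FPKM, 2 of 3 called), neurons and progenitors (30.0 to 122 against 3.38 to 9.88 FPKM, 0 of 6 called) and the cell cycle (19.9 to 43.4 against 0 to 16.5 FPKM, 1 of 3 called). Of the neuronal genes, Tubb3, Dcx and Stmn2 were above 1 FPKM in E16.5 replicate 1 alone (Tubb3 at 36.2, 0.623 and 0.134 FPKM in E16.5 replicates 1 to 3), and Snap25 overlapped between the ages. Most of the sum in E16.5 replicates 2 and 3 was the progenitor gene Sox2, at 25.3 and 26.4 FPKM. Endothelial markers (12.7 to 40.0 against 0.435 to 18.5 FPKM) and macrophage markers (0.584 to 8.48 against 0.0695 to 6.82 FPKM) overlapped between the ages, with none called. Esam, Cd68, Aif1 and Ccnb1 were listed at 0 in all 6 samples. The part of cell makeup and depth in the differences below was not tested.

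The first question was whether the chloride channel and CLIC genes changed between E16.5 and adult ChP. Expression was compared with limma on log2(FPKM + 1) over the 11601 genes with a mean FPKM above 1, and log2 changes are adult minus E16.5. In limma, 0 of the 7 had an adjusted p under 0.05 in either direction, beside 2.12% of all genes tested that were called higher in adult and 8.83% called higher at E16.5. At an unadjusted p under 0.05 the counts were 1 for adult, which was Ano6, and 0 for E16.5, beside 5.34% and 25.9% of all genes tested. The adult samples were all above the E16.5 samples in 1 of the 7, beside 7.39% of all genes tested, and all below them in 0 of the 7, beside 31.0%. The median log2 change of the 7 was -0.12, and that of all genes tested was -0.86. A change of 0 in these values therefore lies above the middle of all genes.

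Clic6 encodes the CLIC protein with the long N-terminal extension and lies on chromosome 16 at 92485736-92541243, plus strand (mm10, ENSMUSG00000022949.9). Its level was 686, 769 and 559 FPKM in adult replicates 1 to 3, against 740, 810 and 760 FPKM in E16.5 replicates 1 to 3. The ranges overlapped: adult replicate 2 lay among the E16.5 samples, and the other adult samples lay below them. The adult mean was 671 ± 105 FPKM and the E16.5 mean 770 ± 35.8 FPKM (SD, n = 3 each), with a log2 change of -0.21 (SE 0.22, 95% interval -0.72 to 0.30, adjusted p = 0.53 in limma). This interval corresponds to an adult level of 0.606 to 1.23 times that at E16.5. By the steps in the low values, the Clic6 level rested on about 6084 to 24097 reads in adult samples and 32893 to 44838 at E16.5, so that counting error is small beside the spread between samples. Clic6 was among the most abundant transcripts at both ages, ranking 22, 39 and 46 of all genes in the adult samples and 56, 48 and 37 at E16.5. None of its 50-base stretches occurs in another annotated gene.

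The direction of the Clic6 change depended on how samples were scaled to each other. Under median-ratio scaling the log2 change was 0.13 and under quantile normalization 0.28. With each sample rescaled to the same sum of FPKM it was -1.04 and passed the threshold (adjusted p = 0.042 in limma), in a setting where the median of all genes was -1.48. Mir6236 alone took 32.7% to 51.7% of the FPKM sum in adult samples, and with the most abundant gene left out of the sum Clic6 was not called. Relative to the median of all genes tested, the Clic6 change was 0.65. For comparison, 93 tested genes had a mean FPKM within a factor of 2 of that of Clic6 (360 to 1442 FPKM). Of these 93, 10 were called in favour of adult and 29 in favour of E16.5, beside 2.12% and 8.83% of all genes tested. Their median log2 change was -1.04.

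Clic1 (chromosome 17, 35049966-35058749, plus strand) encodes a broadly expressed CLIC protein. It was at 1.60, 26.5 and 35.5 FPKM in the adult samples and at 27.0, 33.6 and 28.4 FPKM at E16.5. Adult replicate 1 stood apart, with a level worth about 7.98 reads, while adult replicate 3 was the highest of all 6 samples. The log2 change was -1.15 (SE 0.95, 95% interval -3.37 to 1.07, adjusted p = 0.43 in limma), and without adult replicate 1 it was 0.05. Clic4 (chromosome 4, 135213969-135272814, minus strand), known for its part in the formation of blood vessel lumens, had the same low sample. Its levels were 0.529, 6.30 and 15.6 FPKM in the adult samples, against 3.01, 2.49 and 6.25 FPKM at E16.5. The adult samples lay on both sides of the E16.5 range, and the log2 change was 0.29 (SE 0.96, 95% interval -1.95 to 2.53, adjusted p = 0.86 in limma). Without adult replicate 1 the change of Clic4 was 1.24, and without adult replicate 3 it was -0.48. Clic5 (chromosome 17, 44188584-44280172, plus strand), whose protein sits at the base of the stereocilia of hair cells, was listed at 0 in 5 samples and at 0.123 FPKM, worth about 10.8 reads, in E16.5 replicate 2.

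Clic6 also held most of the CLIC family sum at both ages. FPKM are per length, so genes can be compared within a sample, and a share within a sample does not move with the scaling between samples. Clic6 made up 99.7%, 94.8% and 91.6% of the summed FPKM of Clic1, Clic3, Clic4, Clic5 and Clic6 in adult replicates 1, 2 and 3, and 89.3%, 94.4% and 92.2% in the E16.5 replicates. A gene listed at 0 raises the share of the others. Clic3 was at 0 in adult replicates 1 and 3, at 1.12% in adult replicate 2 and at 7.11%, 1.36% and 3.55% at E16.5. In adult replicate 1, Clic1 and Clic4 were also low, at 0.233% and 0.0768%. The mean shares differed by 3.41 percentage points (exact permutation test, two-sided, p = 0.4, adjusted p = 0.467 over the 7 share and ratio comparisons computed), and the smallest p that 3 samples against 3 allow is 0.1. The 7 include the Clcn2 share and 3 ratios chosen after their values were seen, for which no p-value is given below. Leaving out 1 sample moved this difference between 1.26 points (without adult replicate 1) and 5.28 points (without adult replicate 3).

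Clcn2, Clcn3 and Clcn7 differ in where their proteins act. CLC-2, the product of Clcn2 (chromosome 16, 20702964-20717746, minus strand), is a plasma membrane channel opened by hyperpolarization and described in ChP epithelium. Clcn2 was listed at 0 in all 3 adult samples and at 1.94, 0.275 and 1.99 FPKM at E16.5, worth about 71.1, 12.5 and 85.2 reads. Its mean of 0.701 FPKM was under the filter, so it was not tested. In the adult samples 3 reads would be worth 0.261, 0.116 and 0.335 FPKM, where a 0 is a true count, so that the level of E16.5 replicate 2 lay near this limit and those of the other E16.5 samples above it. No fold is given against a group listed at 0.

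CLC-3, encoded by Clcn3 (chromosome 8, 60910389-60983300, minus strand), exchanges chloride for protons in endosomes. Its gene was at 11.7, 26.2 and 8.28 FPKM in the adult samples and at 19.6, 12.6 and 13.6 FPKM at E16.5. The adult samples spanned the whole E16.5 range, and the means were close, at 15.4 ± 9.51 and 15.3 ± 3.82 FPKM (SD, n = 3 each). The log2 change of Clcn3 was -0.12 (SE 0.55, 95% interval -1.39 to 1.15, adjusted p = 0.90 in limma), an interval that leaves room for changes of more than 2-fold either way. CLC-7, encoded by Clcn7 (chromosome 17, 25133391-25162104, plus strand), is the lysosomal exchanger that works with the subunit OSTM1. Clcn7 was at 5.55 and 3.47 FPKM in adult replicates 1 and 2, was listed at 0 in adult replicate 3, and was at 1.63, 1.77 and 2.74 FPKM at E16.5. Adult replicates 1 and 2 lay above all E16.5 samples and adult replicate 3 lay below them. Its log2 change was 0.04 (SE 0.84, 95% interval -1.91 to 1.98, adjusted p = 0.98 in limma), and without adult replicate 3 it was 0.85 (adjusted p = 0.39).

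Ano6 encodes TMEM16F, a calcium-activated phospholipid scramblase that also conducts ions, and lies on chromosome 15 at 95790843-95974751, plus strand. It was at 20.0, 29.9 and 41.1 FPKM in the adult samples and at 9.65, 14.6 and 6.99 FPKM in those of E16.5. The ages did not overlap, and the lowest adult sample was above the highest E16.5 sample by more than 5 FPKM. The adult mean was 30.3 ± 10.5 FPKM and the E16.5 mean 10.4 ± 3.87 FPKM (SD, n = 3 each). The log2 change was 1.45 (SE 0.48, 95% interval 0.33 to 2.58), a 2.74-fold higher level in adult on the log2(FPKM + 1) scale, with an unadjusted p of 0.018 and an adjusted p of 0.091 in limma, so that it was not called. The exact permutation test gave p = 0.1, the smallest that it can give here. The change kept its direction under all 17 alternatives (0.68 to 2.21, adjusted p 0.032 to 0.31), and it was called in 1 of them, quantile normalization. Relative to the median of all genes tested, the Ano6 change was 2.31. Its level rested on about 372 to 1246 reads in adult samples and 484 to 1076 reads at E16.5.

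**Figure D2:**
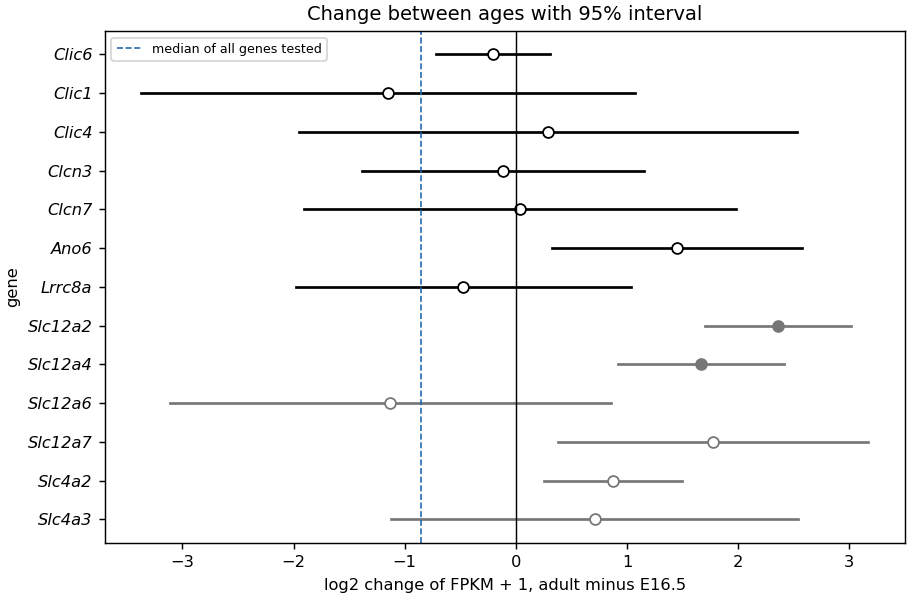
Log2 change of FPKM + 1, adult minus E16.5, with its 95% interval from limma (3 samples per age), for the 7 tested chloride channel and CLIC genes (black) and the 6 chloride carrier genes (grey). Filled points passed an adjusted p of 0.05, and the dashed line marks the median of all genes tested, -0.86. Ano6 is the 1 black gene whose interval lies above 0, and Slc12a2 and Slc12a4 are the filled points.

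Lrrc8a encodes the subunit that every volume-regulated anion channel needs, and lies on chromosome 2 at 30237715-30263790, plus strand. Its level was 9.13, 36.0 and 7.41 FPKM in the adult samples and 15.3, 27.0 and 17.5 FPKM at E16.5. Adult replicate 2 was the highest of the 6 samples and the other adult samples were the lowest. The log2 change was -0.47 (SE 0.65, 95% interval -1.98 to 1.04, adjusted p = 0.64 in limma). These values are uncertain in another way, since 66.2% of the 50-base stretches of Lrrc8a also occur among 2 other genes, most often in Gm28035. Gm28035 is an overlapping protein-coding gene on the same strand that has no entry under that name in the table. In the other 9 genes the share of 50-base stretches found in another gene was 0% to 3.66%.

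Cftr (chromosome 6, 18170687-18322768, plus strand) was listed at 0 in all 6 samples. At the depth of these libraries, 3 reads of Cftr would be worth 0.0558 to 0.161 FPKM in adult samples and 0.0316 to 0.0394 FPKM at E16.5, limits that cover counting error only and hold only where a 0 is a true count. The genes for partners of CFTR were measured: of 7 genes for PDZ proteins, ezrin and protein kinase A subunits, limma called 0 as higher in adult and 1 as higher at E16.5, beside 2.12% and 8.83% of all genes tested, with a median log2 change of -0.59. This gene was Ezr, which encodes ezrin, a linker of apical membrane proteins to actin. Ezr was at 719, 717 and 848 FPKM in the adult samples and at 1300, 1289 and 1551 FPKM at E16.5, without overlap. Its log2 change was -0.86 (SE 0.21, adjusted p = 0.044 in limma), the same as the median of all genes tested. The Ezr call was lost in 12 of 17 alternatives, among them those without adult replicate 1 or 3 and without each E16.5 replicate (adjusted p up to 0.14) and quantile normalization (0.538), while its direction held in all 17.

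The order of the 10 genes by level was compared at each age by the mean FPKM, taking neighbours as separate where their ranges over the 3 samples did not meet. In adult ChP the order was Clic6, Ano6, Clic1, Lrrc8a, Clcn3, Clic4 and Clcn7, and Clic5, Clcn2 and Cftr were listed at 0. Only Clic6 was separate from its neighbour. At E16.5 the order was Clic6, Clic1, Lrrc8a, Clcn3, Ano6, Clic4, Clcn7, Clcn2, Clic5 and Cftr. There Clic6 was separate from Clic1, Clic1 from Lrrc8a, Ano6 from Clic4 and Clcn2 from Clic5. Clic1 and Lrrc8a were barely separate, with the lowest Clic1 value at 27.01 and the highest Lrrc8a value at 26.98 FPKM. The Lrrc8a level is also uncertain through the stretches it shares with Gm28035. Lrrc8a and Clcn3, Clcn3 and Ano6, Clic4 and Clcn7, Clcn7 and Clcn2, and Clic5 and Cftr overlapped. Ano6 thus followed Clcn3 at E16.5 and Clic6 in adult samples.

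The makeup of the CLC, LRRC8 and anoctamin families was also taken within each sample. Of the summed FPKM of the 9 CLC genes, Clcn3 made up 44.5%, 31.8% and 39.1% in the adult samples and 41.2%, 40.0% and 44.3% at E16.5. Clcn4-2, the mouse gene for the endosomal exchanger CLC-4, lay close to it, at 34.2%, 45.4% and 50.2% in the adult samples and 38.5%, 37.7% and 29.6% at E16.5. These genes for endosomal exchangers therefore held most of the family sum in every sample. Clcn7 made up 21.1%, 4.22% and 0% in the adult samples and 3.42% to 8.96% at E16.5, and Clcn5, for a related exchanger of endosomes, 0.270% to 16.9% in adult samples and 7.15% to 8.82% at E16.5. Clcn2 held 4.08%, 0.873% and 6.50% of the CLC sum at E16.5 and 0% in the adult samples, where the gene was listed at 0, so this share is given without a p-value.

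Among the LRRC8 genes, Lrrc8a made up 35.7%, 54.6% and 13.4% of the sum in the adult samples and 51.3%, 61.4% and 38.2% at E16.5. The E16.5 samples lay within or above the adult range, and the difference of means was -15.7 percentage points (exact permutation test, two-sided, p = 0.4, adjusted p = 0.467). It was -5.12 points without adult replicate 3, -10.1 without E16.5 replicate 2 and -25.7 without adult replicate 2. The partner subunit with the largest share differed between adult samples, with Lrrc8b at 50.7% in adult replicate 1 and Lrrc8c at 25.9% and 59.9% in adult replicates 2 and 3. Lrrc8c led the partners in all E16.5 samples, at 18.9% to 27.9%, with Lrrc8d at 15.9% to 23.8%. Lrrc8e was listed at 0 in all 6 samples. Ano6 made up 42.1%, 49.7% and 92.6% of the summed FPKM of the 10 anoctamin genes in the adult samples and 37.8%, 73.8% and 33.7% at E16.5. Its share overlapped between the ages (difference of means 13.1 percentage points, exact permutation test, two-sided, p = 0.5, adjusted p = 0.5), although its FPKM did not. The direction of this difference rested on adult replicate 3, without which it was -2.47 points. It was 5.73 points without E16.5 replicate 3, 7.78 without E16.5 replicate 1, 22.8 without adult replicate 1 and 25.8 without E16.5 replicate 2. Ano10 and Ano3 held most of the rest in all samples but adult replicate 3, at 0.324% to 41.6% and 0% to 11.7% in adult samples and 4.90% to 26.8% and 14.6% to 34.4% at E16.5, and Ano8 reached 11.3% in adult replicate 2.

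**Figure D3:**
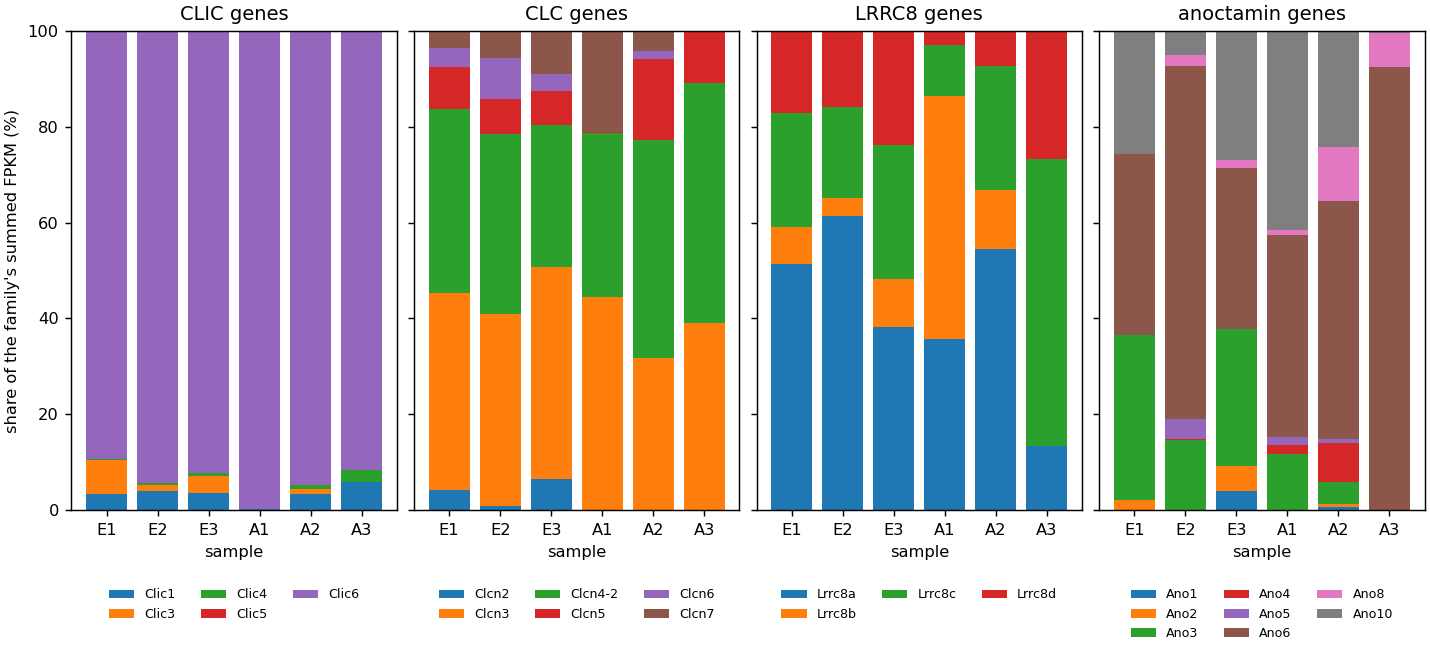
Share of each gene in the summed FPKM of its family in percent, for the CLIC, CLC, LRRC8 and anoctamin genes, with 1 bar per sample (E1 to E3, E16.5 replicates; A1 to A3, adult replicates). Genes listed at 0 in all samples are left out. Clic6 fills 89.3% or more of every CLIC bar, and Ano6 fills 33.7% to 92.6% of the anoctamin bars.

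A wider list of 32 other chloride channel genes and subunits was taken by gene family. Of these, 19 were tested and 0 were called in either direction in limma, beside 2.12% (adult) and 8.83% (E16.5) of all genes tested. At an unadjusted p under 0.05 there were 1 (adult) and 2 (E16.5), and the median log2 change was 0.28. The shares of all genes tested were 5.34% and 25.9% at that unadjusted p. In 2 of the 19 the adult samples were all above the E16.5 samples and in 2 all below, beside 7.39% and 31.0% of all genes tested. Clcn1, the chloride channel gene of skeletal muscle, and Bsnd, Lrrc8e, Ano7, Ano9 and Best2 were among the genes listed at 0 in all 6 samples. The 3 genes of this list with the highest mean FPKM were Clns1a, Clic3 and Clcn4-2. Clns1a, first described for swelling-activated chloride current and now known for its part in spliceosome assembly, was at 15.2, 35.2 and 0 FPKM in the adult samples and at 24.5, 45.2 and 33.8 FPKM at E16.5. The Clcn4-2 values were 9.02, 37.4 and 10.6 FPKM in the adult samples and 18.3, 11.9 and 9.06 FPKM at E16.5, and both genes overlapped between the ages.

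Clic3, another CLIC gene, was listed at 0 in adult replicates 1 and 3, was at 9.09 FPKM in adult replicate 2, and was at 59.0, 11.7 and 29.3 FPKM at E16.5. All adult samples lay below all E16.5 samples, and the log2 change of -3.72 (SE 1.07) had an adjusted p of 0.065 in limma. Over the 17 alternatives the change ranged from -8.13 to -2.83 and the adjusted p from 0.016 (without adult replicate 2) to 0.226 (without E16.5 replicate 1), and 3 of the 17 gave a call. Best3 and Ttyh3 were chosen for mention after their values were seen. Best3, a bestrophin gene of the calcium-activated chloride channel family, was at 21.1, 11.5 and 3.76 FPKM in the adult samples and at 0.380, 0.0251 and 2.80 FPKM at E16.5. Its values did not overlap, and the log2 change was 2.65 (SE 0.86, adjusted p = 0.085 in limma). Over the alternatives it ranged from 2.11 to 4.85 with an adjusted p of 0.018 to 0.262, and 2 of the 17 gave a call, quantile normalization and leaving out adult replicate 3 (0.039). Ttyh3, a tweety family gene, was at 1.40, 2.11 and 0.969 FPKM in the adult samples and at 5.53, 17.0 and 14.4 FPKM at E16.5. The adult samples were again all below, with a log2 change of -2.31 (SE 0.68, adjusted p = 0.066 in limma, 0.021 to 0.396 over the alternatives).

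Chloride carriers work beside the channels, and some of their genes were called. Of 6 carrier genes tested, limma called 2 as higher in adult and 0 as higher at E16.5, beside 2.12% and 8.83% of all genes tested. In 4 of the 6 the adult samples were all above the E16.5 samples, beside 7.39% of all genes tested, and the median log2 change was 1.27. Slc12a2, which encodes the sodium, potassium and chloride cotransporter NKCC1 of the apical ChP membrane, was at 216, 203 and 165 FPKM in the adult samples and at 35.0, 32.1 and 44.6 FPKM at E16.5. Its log2 change was 2.36 (SE 0.28, adjusted p = 0.0056 in limma), called in 15 of 17 alternatives and missed when E16.5 replicate 1 or 2 was left out (0.0503 and 0.0559). Slc12a4, for the potassium-chloride cotransporter KCC1, was at 73.7, 59.0 and 76.7 FPKM in the adult samples and at 20.1, 24.7 and 19.2 FPKM at E16.5. Its log2 change was 1.66 (SE 0.32, adjusted p = 0.024 in limma), and the call was lost in 8 of 17 alternatives. These were leaving out adult replicate 1 or any E16.5 replicate (adjusted p 0.0523 to 0.0856), the replicate block (0.0659), limma without trend (0.0515), rescaling to the same sum (log2 change 0.86, adjusted p = 0.108) and the stricter threshold of 0.01. Slc4a2, for the anion exchanger AE2 of the blood-facing membrane, was at 207, 325 and 302 FPKM in the adult samples and at 134, 163 and 151 FPKM at E16.5. These samples did not overlap either, and the log2 change of 0.87 (SE 0.27) had an adjusted p of 0.076 in limma (0.014 to 0.927 over the alternatives, with a change of 0.045 after rescaling to the same sum). Slc12a7, for KCC4, had a log2 change of 1.78 (SE 0.60, adjusted p = 0.095 in limma, 0.029 to 0.256 over the alternatives).

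Ratios within a sample set Clic6 beside these carriers without regard to the scaling between samples. The 3 pairs were chosen after their values were seen, so their ratios are given as a description without a p-value. The ratio of Clic6 to Slc12a2 FPKM was 3.18, 3.78 and 3.40 in the adult samples and 21.1, 25.2 and 17.0 at E16.5. Clic6 was thus more abundant than Slc12a2 in every sample, and the ratio was 6.06-fold higher at E16.5 (log2 difference -2.60). The ratio of Clic6 to Slc4a2 was 3.31, 2.37 and 1.85 in the adult samples and 5.53, 4.98 and 5.03 at E16.5, 2.12-fold higher at E16.5 without overlap. The ratio of Ano6 to Clic6 was 0.0292, 0.0389 and 0.0734 in the adult samples and 0.0130, 0.0181 and 0.00920 at E16.5, 3.38-fold higher in adult.

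**Figure D4:**
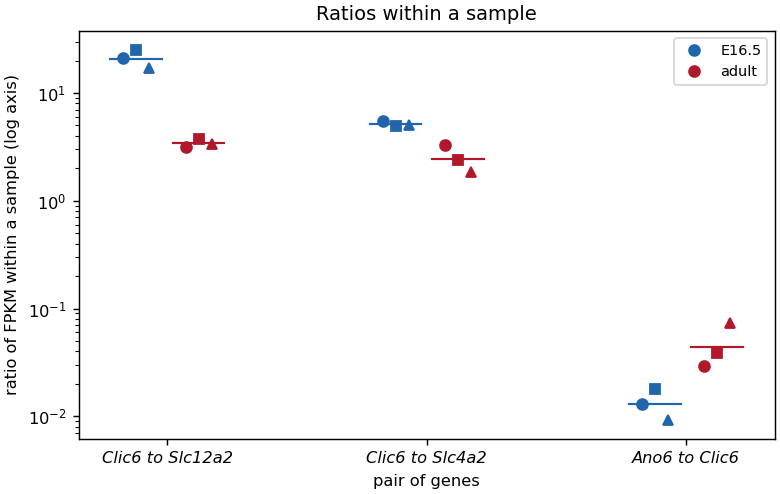
Ratio of FPKM of a pair of genes within a sample, on a log axis, for Clic6 to Slc12a2, Clic6 to Slc4a2 and Ano6 to Clic6, with E16.5 in blue, adult in red, replicates 1, 2 and 3 as circles, squares and triangles, and a line at the geometric mean. The ages do not overlap in any of the 3 pairs, and Clic6 to Slc12a2 is 17.0 or more at E16.5 and 3.78 or less in adult samples.

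The genes whose pattern over the 6 samples was most like that of Clic6, by Pearson's r of log2(FPKM + 1), were Pitpna (0.998), Max (0.996), Nadk2 (0.995), Hnrnpul1 (0.994) and Dcaf10 (0.993). The points share their library and its depth, and the values are a description. All 5 had their lowest level in adult replicate 3, the shallowest library, and their highest in E16.5 replicate 2, the deepest. Clic6 had the same lowest and highest samples, so these extremes follow from choosing genes by likeness to it. The order between them was not that of depth, since adult replicate 2 lay above E16.5 replicate 1, a deeper library, in all 5. Pitpna, for a phosphatidylinositol transfer protein, was at 34.5, 52.9 and 14.5 FPKM in the adult samples and at 43.1, 66.7 and 48.8 FPKM at E16.5. The part of depth in this likeness was not tested.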

How the data were processed

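TRAP-seq samples of 3 adult and 3 E16.5 ChP were grouped by age from their labels. The authors deposited a table of gene FPKM, calculated with Cufflinks (Cuffquant) from single-end reads aligned to mm10 with STAR 2.4.0; the annotation given to Cuffquant, and whether strand was used, are not given in the sources used here. FPKM were used as deposited, log2-transformed after a pseudocount of 1, filtered to a mean above 1 and compared with limma 3.58.1 in R 4.3.3 (intensity trend, no covariates, Benjamini-Hochberg adjustment over all 11601 genes tested). The limma step was tested on simulated data. Family shares were compared by two-sided exact permutation tests. Depth was inferred from the steps of low FPKM values, with 2523 genes of a single transcript searched and 200 bases taken off the transcript as effective length. The step of each library rested on 45 to 70 low values. Of these, 64.1% to 80% lay within 0.1 of a whole multiple of the step, which was chosen for the best fit, so read equivalents are approximate. Intervals of log2 changes are from limma and rest on the spread between samples, while the limits given for 3 reads cover counting error only. Coordinates are from the GENCODE annotation of mm10.

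The genes and lists were chosen with earlier results of these data known. The rule for named genes took all 10 members, called genes of the wider lists or otherwise their 3 most abundant genes, markers, family members above 10% of a family sum, and the 5 genes most like Clic6. Not every gene it takes is named, and some are not reported here. Alternatives changed the pseudocount, filter, scaling, variance model, replicate block, threshold and samples. Sequences are not shown.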

Additional observations from a re-analysis of the deposited data

How the results depend on the processing

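Each gene was refitted under 17 alternatives. With quantile normalization 1 of the members, Ano6, was called higher in adult, and with samples rescaled to the same sum of FPKM 1 of them, Clic6, was called higher at E16.5. Every other alternative left both counts at 0. In the wider list, 2 genes (Ano8 and Best3) were called higher in adult with quantile normalization, and 0 to 1 when a replicate was left out. Higher at E16.5 were 2 genes (Clic3 and Ttyh3) with the same sum, 1 with the same sum without the most abundant gene, 1 with limma without trend, and 0 to 1 when a replicate was left out. Directions of uncalled genes turned as follows, on the log2 scale. Clic6 was 0.13 with median-ratio scaling and 0.28 with quantile normalization. Clcn3 was 0.20 and 0.57 in the same settings and Lrrc8a 0.17 with quantile normalization. Clic4 was -0.33 and Clcn4-2 -0.48 with the same sum. Clcn7 was -0.73 and -1.79 with pseudocounts of 0.1 and 0.01, -0.47 with the same sum and -0.092 with that sum without the most abundant gene. When a replicate was left out, Clic1 ranged from -1.85 to 0.053, Clic4 from -0.48 to 1.24, Clcn3 from -0.56 to 0.22, Clcn7 from -0.51 to 0.85 and Clcn4-2 from -0.33 to 0.64. The cause was not tested. Among the shares, that of Ano6 among the anoctamins turned, from a difference of 13.1 percentage points to -2.47 without adult replicate 3, and ranged up to 25.8 without E16.5 replicate 2. The other 3 shares and the 3 ratios kept their direction in all alternatives run. The Clcn2 share has no value with genes of mean FPKM above 1 only, since Clcn2 is then left out.

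Nothing in the labels says that a replicate number is shared between the ages, and the values do not settle it. Same-numbered samples had a correlation of deviations of 0.000895 to 0.0439, and those with different numbers -0.0292 to 0.0135. Of the 6 samples, 4 correlated best with their own number. With the replicate block 0 members were called in either direction, the calls of Slc12a4 and Ezr were lost (adjusted p 0.0659 and 0.0807 in limma), and the calls over all genes were 564 in place of 1270. The all-gene counts also fell when an E16.5 replicate was left out, to 32 (adult higher) and 25 (E16.5 higher) without replicate 1, 27 and 16 without replicate 2, and 47 and 65 without replicate 3. What can be said of Clcn2, Clic5, Cftr and other genes listed at 0 is limited, since a listed 0 may be a failed estimate at either age. The adult libraries were also less deep than those of E16.5.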
